A study of Mus musculus with 14 samples.

Results

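The genes for the globin chains of mouse haemoglobin, together with Ahsp, the chaperone of free alpha chains, make up a set of 8 names. They were looked up by gene name in a table of raw read counts for 55335 genes. There, 7 of the 8 were found: the adult alpha genes Hba-a1 and Hba-a2, the adult beta genes Hbb-bs and Hbb-bt, and the embryonic genes Hba-x, Hbb-y and Hbb-bh1. All 7 passed the filter on low counts, which left 21509 genes for testing. The embryonic genes passed it on low counts, which were 0 in many libraries for Hbb-y and Hbb-bh1 and in 2 untreated libraries for Hba-x. Ahsp was not analysed here.

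RNA was sequenced from bone marrow cells of mice carrying Cdh5 CRE and Rosa26 TdTomato, in which Cre under the promoter of the endothelial cadherin gene Cdh5 switches on a red reporter. Cells negative for lineage markers and for CD45, the pan-leukocyte surface protein, and positive for TdTomato were sorted, and all groups share this genotype and sort. The groups were non-treated mice (untreated, 4 libraries), mice given 500 cGy total body irradiation from a caesium source (TBI, 5 libraries), mice given 20 µCi of radioimmunotherapy with a non-targeted IgG (IgG RIT, 3 libraries) and mice given 20 µCi of CD45-targeted radioimmunotherapy (CD45 RIT, 2 libraries). Radioimmunotherapy delivers a radionuclide by means of an antibody. Treated mice were harvested after 8 days. Age, sex, the antibody clones and the radionuclide are not given in the sources used here, nor is it stated whether each library came from a separate animal, so p-values measure the spread between these libraries. TBI replicate 2 was not analysed here.

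Haemoglobin is a tetramer of 2 alpha-type and 2 beta-type chains, each holding a haem group that binds oxygen. The alpha-type and beta-type genes lie in separate clusters, and each cluster has embryonic genes, used mainly in the primitive red cells of the yolk sac, and adult genes, used in the definitive red cells made in fetal liver and bone marrow. Globin transcripts come to dominate the messenger RNA of maturing red cell precursors. Endothelial cells are not known for making adult haemoglobin at such levels.

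On GRCm38, the adult alpha genes lie on the plus strand of chromosome 11, Hba-a1 at chr11:32283511-32284465 and Hba-a2 at chr11:32296489-32297298, with embryonic Hba-x before them at chr11:32276400-32278116. The beta cluster lies on the minus strand of chromosome 7, with Hbb-bt at chr7:103812524-103813996, Hbb-bs at chr7:103826534-103828096, Hbb-bh1 at chr7:103841637-103843164 and Hbb-y at chr7:103851749-103853216. Each of the 7 has 3 exons and 2 introns in the GENCODE M21 transcript used here. The coding sequences hold 142 codons before the stop codon in the alpha-type genes and 147 in the beta-type genes.

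The coding sequences of the adult copies are shown because the counts of near-identical genes can be exchanged between them. Hba-a1 and Hba-a2 differed at 1 of 429 coding bases, the substitution C381T in codon 127 from Hba-a1 to Hba-a2, counted from 1 at the first base of the start codon. Hbb-bs and Hbb-bt differed at 1 of 444 coding bases, C417T in codon 139 from Hbb-bs to Hbb-bt. The stretches around these bases, coding bases 351 to 411 of the alpha genes and 387 to 444 of the beta genes, were read from the GENCODE M21 transcripts, and the capital marks the base that differs.
Hba-a1: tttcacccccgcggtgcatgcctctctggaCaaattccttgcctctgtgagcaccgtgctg
Hba-a2: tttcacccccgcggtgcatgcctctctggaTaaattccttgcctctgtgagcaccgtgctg
Hbb-bs: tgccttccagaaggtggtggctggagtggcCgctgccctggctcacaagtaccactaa
Hbb-bt: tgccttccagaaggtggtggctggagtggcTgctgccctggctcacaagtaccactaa

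Of all 50-base windows of the transcript, 67.5% in Hba-a1 and 86.9% in Hba-a2 were found in the other adult alpha gene. For the adult beta pair the shares were 65.8% in Hbb-bs and 58.3% in Hbb-bt. How reads that match both copies were assigned is not given in the sources used here, so the split of counts within each pair is uncertain. The embryonic genes shared 0 such windows with the adult genes compared, and their coding identity was 62.0% between Hba-x and Hba-a1, 74.3% between Hbb-y and Hbb-bs, 74.1% between Hbb-bh1 and Hbb-bs, and 76.4% between Hbb-y and Hbb-bh1.

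The promoters are shown because the 4 adult genes moved together across libraries. Textbook globin promoters carry a CACCC box, bound by the erythroid factor KLF1, a CCAAT box and a TATA-like box. RefSeq upstream sequence of build GRCm38.p6 was held for 6 of the 8 names, all but Hbb-bh1 and Ahsp, and 30-base windows were read on the gene's strand. The upstream window covers bases -100 to -71 from the RefSeq start site, and capitals mark CACCC or CCAAT on either strand. RefSeq and GENCODE start sites differ. The upstream windows of Hba-a1, Hbb-bs and Hba-x therefore lie inside the GENCODE gene coordinates given above, and that of Hbb-bt overlaps them. In Hbb-bt the capitals run over 2 adjoining CCAAT matches, the first on the opposite strand.
Hba-a1 (chr11:32283572-32283601, plus strand): agcacaaaccagCCAATgagaactgctcca
Hba-a2 (chr11:32296392-32296421, plus strand): acaaaccagCCAATgagaactgctccaagg
Hbb-bs (chr7:103827999-103828028, minus strand): cgtagagccaCACCCtggtaagggCCAATc
Hbb-bt (chr7:103813994-103814023, minus strand): ctgcagggtaaCACCCtggcATTGGCCAAT
Hba-x (chr11:32276500-32276529, plus strand): ggctcCACCCtgcaagccccctcccctctc
Hbb-y (chr7:103853278-103853307, minus strand): accacgggtcaggctgaCCAATagcttcaa

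The second window covers bases -35 to -6, and capitals mark TATAA or ATAAA on the gene's strand, which overlap each other in Hbb-bt and Hba-x.
Hba-a1 (chr11:32283637-32283666, plus strand): ggagggcaTATAAgtgctacttgctgcagg
Hba-a2 (chr11:32296457-32296486, plus strand): gggcaTATAAgtgctacttgctgcaggtcc
Hbb-bs (chr7:103827934-103827963, minus strand): agagcaTATAAggtgaggtaggatcagttg
Hbb-bt (chr7:103813929-103813958, minus strand): ttgggtaTATAAAgctgagcagggtcagtt
Hba-x (chr11:32276565-32276594, plus strand): atgtgtaTATAAAggagacactggggacaa
Hbb-y (chr7:103853213-103853242, minus strand): gtgaagcATAAAaggccaccacttctagca

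Among 32851 promoters of the same table, the upstream window held CACCC in 8.43% and CCAAT in 6.7%, with either in 14.7%. The window near the start site held TATAA in 3.65% and ATAAA in 4.62%, with either in 6.19%. All 6 globin promoters held a motif in both windows, but not the same one. CACCC was found only in Hbb-bs, Hbb-bt and Hba-x, so neither adult alpha gene held it in this window. CCAAT was found in all but Hba-x, and TATAA in all but Hbb-y. The 250 bases upstream of Hba-a1 and Hba-a2 shared an identical stretch of 247 bases, whereas the longest identical stretch between Hbb-bs and Hbb-bt was 14 bases.

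Library totals ran from 16412779 to 31077588 counts, so counting error was small beside the spread between libraries. The widest 95% Wilson interval of a library's globin share spanned 0.0352 percentage points. The sorted population was labelled endothelial, yet Cdh5 itself had 0 to 6 counts per library and 0 in every IgG RIT and CD45 RIT library. The 20 endothelial markers summed to 75.4 to 382 CPM (counts scaled to a library of 1000000 counts), against 3100 to 45600 CPM for 20 erythroid markers other than globins. The endothelial markers did not all move in 1 direction in CD45 RIT. Kdr and Flt4 were higher there than in untreated, and Tie1 and Pecam1 lower (edgeR, adjusted p under 0.05). In the CD45 RIT libraries Kdr ranged from 1 to 2390 counts and Flt4 from 0 to 1306. The 6 libraries with a library number of 10 or more in the labels, TBI replicate 6 and all RIT libraries, had globin shares of 4.54% to 17.8%, and the 8 with lower numbers had 0.645% to 3.66%. What the library number stands for is not stated in the labels. All untreated libraries had numbers under 10 and all RIT libraries 10 or more, so library number and RIT cannot be told apart except through the TBI group.

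Globin transcripts took a larger share of every treated library than of any untreated library. The 7 globin genes summed to 0.877%, 0.645%, 1.24% and 0.756% of all counts in untreated replicates 1 to 4. They summed to 2.5%, 3.05%, 2.05% and 3.66% in TBI replicates 1, 3, 4 and 5, and to 15.7% in TBI replicate 6. IgG RIT replicates 1 to 3 gave 12.2%, 12.0% and 11.7%, and CD45 RIT replicates 1 and 2 gave 17.8% and 4.54%. Thus TBI replicate 6 lay among the RIT libraries rather than with the other TBI libraries, and the CD45 RIT libraries lay on either side of the IgG RIT libraries. The summed levels of other blood cell markers were lower in treated libraries: 10300 to 12900 CPM of 10 neutrophil markers and 2310 to 2680 CPM of 10 haematopoietic markers in untreated libraries stood against 5.23 to 1210 and 87.4 to 1320 CPM in treated ones. The neutrophil sum was mostly Mpo, Elane, Ctsg and Prtn3, which were called lower after each treatment, whereas S100a8, S100a9, Camp, Ngp and Ltf had log2 fold changes of 1.45 to 2.41 after IgG RIT that did not pass. Of the haematopoietic markers, 1, 3 and 7 of 10 were called lower after TBI, IgG RIT and CD45 RIT. Of all genes tested, 3.38%, 10.7% and 18.6% were called lower in those comparisons. The part of these markers in the globin result was not tested. In sorted bulk cells, more cells of a type and more RNA per cell cannot be told apart.

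**Figure D1:**
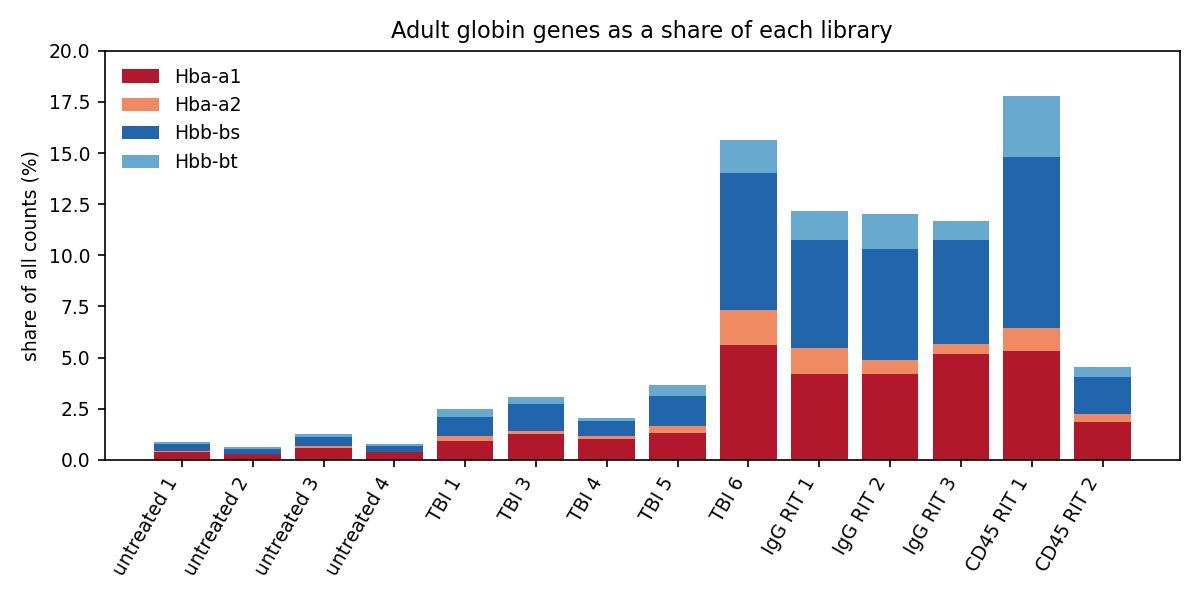
Bars give the share of all counts (%, linear axis from 0) taken by the 4 adult globin genes in each of the 14 libraries, stacked by gene. The untreated libraries sit at or below 1.24%, TBI replicate 6 at 15.7%, and the CD45 RIT libraries at 17.8% and 4.54%.

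Among the adult alpha genes, Hba-a1 is the copy nearer the embryonic gene and the more abundant. Its level, in CPM on the TMM-scaled library size, was 2930, 2250, 4760 and 3260 in untreated replicates 1 to 4. In TBI replicates 1, 3, 4, 5 and 6 it was 7890, 10600, 9540, 11100 and 66200, in IgG RIT it was 52400, 48000 and 61700, and in CD45 RIT it was 75300 and 23700. No treated library overlapped the untreated range. TBI replicate 6 was about as high as the IgG RIT libraries.

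Hba-a2, the second adult alpha copy, had 578, 249, 868 and 246 CPM in the untreated libraries and 2080, 1320, 1500, 2740 and 20100 CPM in TBI replicates 1, 3, 4, 5 and 6. IgG RIT libraries had 16000, 7850 and 5860 CPM and CD45 RIT libraries 16200 and 5210 CPM. The treated libraries were again all above the untreated ones, and the untreated libraries varied more in Hba-a2, relative to its mean, than in the other adult globin genes.

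Hbb-bs, the main adult beta gene, had 2770, 2020, 3780 and 2240 CPM in the untreated libraries. The TBI libraries had 7770, 11100, 6670, 12700 and 78700 CPM in replicates 1, 3, 4, 5 and 6, the IgG RIT libraries 66200, 61800 and 61100 CPM, and the CD45 RIT libraries 119000 and 23100 CPM. CD45 RIT replicate 1 held the highest level of any globin gene in the series. CD45 RIT replicate 2 lay between the lower 4 TBI libraries and IgG RIT.

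Hbb-bt, the other adult beta gene, had 859, 801, 811 and 829 CPM in the untreated libraries, the narrowest untreated range of the 4. The TBI libraries had 3320, 2610, 1380, 4390 and 19500 CPM, the IgG RIT libraries 18000, 19500 and 11000 CPM, and the CD45 RIT libraries 42500 and 6460 CPM. As for the other adult genes, TBI replicate 6 was the lone high TBI library and all treated libraries lay above the untreated ones.

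**Figure D2:**
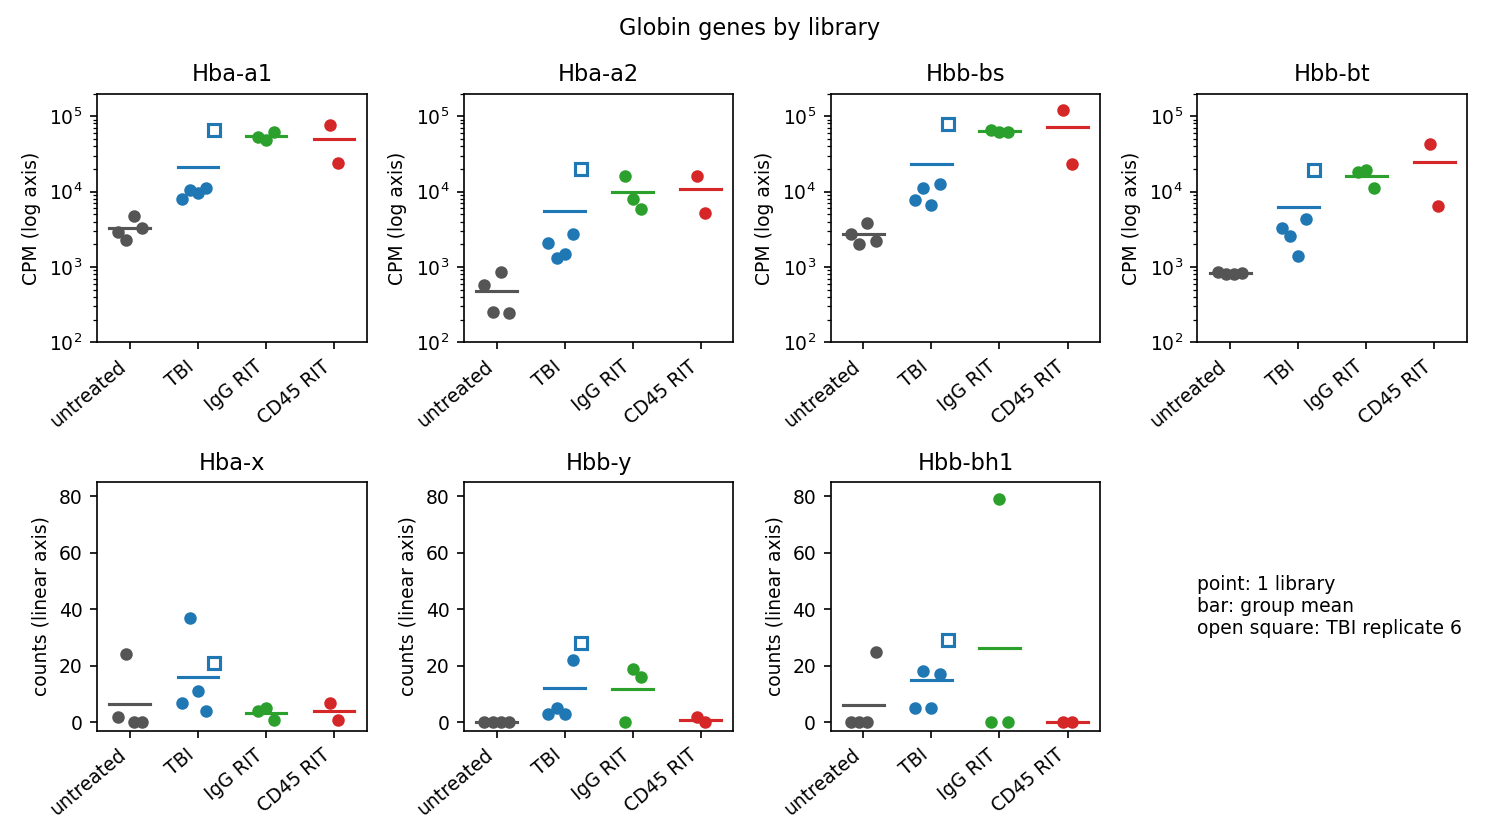
Each point is 1 library and each bar a group mean. The upper panels give CPM of the adult globin genes on a log axis, and the lower panels give raw counts of the embryonic genes on a linear axis. Every treated library lies above every untreated one for the adult genes, TBI replicate 6 (open square) lies with the IgG RIT libraries, and embryonic counts stay at or below 79.

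Adult globin transcripts were higher after TBI than in untreated mice, and the call rested on a narrow margin. Hba-a1 rose by a log2 fold change of 2.67 (SE 0.67, 95% interval 1.21 to 4.14, adjusted p = 0.0447) and Hbb-bs by 3.11 (SE 0.79, 95% interval 1.4 to 4.83, adjusted p = 0.0455), both higher in 5 of 5 TBI libraries. Hba-a2 and Hbb-bt did not pass, at 3.51 on the log2 scale for the first (SE 0.93, adjusted p = 0.0537) and 2.92 for the second (SE 0.76, adjusted p = 0.0521). All p-values are from edgeR's quasi-likelihood test with Benjamini-Hochberg adjustment over all genes tested in the comparison, at a threshold of 0.05. Thus 2 of the 7 members were called, both higher, where 4.31% of all genes tested were called and 0.921% were called higher. For all 4 adult genes every TBI library exceeded every untreated library, which held for 6.34% of genes tested.

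TBI replicate 6 carried much of the TBI fold changes. Without it Hba-a1, Hba-a2, Hbb-bs and Hbb-bt had log2 fold changes of 1.57, 1.98, 1.83 and 1.83 against untreated, and Hba-a1 and Hbb-bs were called, as with it. The count of members called fell to 0 when any single untreated library, TBI replicate 3 or 5, or any single IgG RIT library was left out. Without CD45 RIT replicate 1 the log2 fold changes of Hba-a1 and Hbb-bs were 2.67 and 3.11 as before, and without CD45 RIT replicate 2 they were 2.86 and 3.31.

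After IgG RIT the adult globin genes were higher than in untreated mice by larger factors. The log2 fold changes were 4.03 for Hba-a1 (SE 0.75, 95% interval 2.4 to 5.67, adjusted p = 0.00551), 4.35 for Hba-a2 (SE 1.01, 95% interval 2.17 to 6.54, adjusted p = 0.0136), 4.54 for Hbb-bs (SE 0.88, 95% interval 2.63 to 6.46, adjusted p = 0.00636) and 4.29 for Hbb-bt (SE 0.85, 95% interval 2.44 to 6.14, adjusted p = 0.007). These 4 and embryonic Hbb-y made 5 of 7 members called, all higher, where 16.4% of genes tested were called and 5.75% were called higher. Hbb-y passed the filter on low counts through the TBI and IgG RIT libraries alone, so its call adds no support to that count. All 3 IgG RIT libraries exceeded all 4 untreated libraries for the 4 adult genes, as for 15.6% of genes tested.

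In the CD45 RIT group the adult genes were likewise higher than in untreated mice. The log2 fold change of Hba-a1 was 3.91 (SE 0.79, 95% interval 2.2 to 5.62, adjusted p = 0.0029) and that of Hba-a2 was 4.47 (SE 1.06, 95% interval 2.17 to 6.76, adjusted p = 0.00722). Hbb-bs had 4.71 (SE 0.92, 95% interval 2.71 to 6.72, adjusted p = 0.00247) and Hbb-bt 4.89 (SE 0.91, 95% interval 2.92 to 6.86, adjusted p = 0.00177). These 4 of 7 members were called, where 33.1% of genes tested were called and 14.5% were called higher, so a call was a less rare event here than after TBI. Both CD45 RIT libraries exceeded all 4 untreated libraries for each adult gene, which held for 17.5% of genes tested. Without CD45 RIT replicate 1 the log2 fold changes were 2.83, 3.41, 3.08 and 2.96 in the same order of genes, and the 4 genes were called. With 1 CD45 RIT library left, this and each such fit assumes that the lone library varies like the other groups, so these calls are of a single library and do not show stability.

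The library number moved with these results. With library number of 10 or more as a term, a fit chosen after the data were seen, the log2 fold changes for IgG RIT against untreated were 1.28 for Hba-a1, 0.96 for Hba-a2, 1.51 for Hbb-bs and 1.56 for Hbb-bt, with adjusted p from 0.928 to 1.0. For CD45 RIT against untreated they were 1.15, 1.07, 1.68 and 2.16, with adjusted p from 0.201 to 0.554. No member was called in either comparison under that fit. The term is estimated from TBI replicate 6 against the other 4 TBI libraries alone, so it carries whatever set that single library apart, and its part in the result was not tested further.

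**Figure D3:**
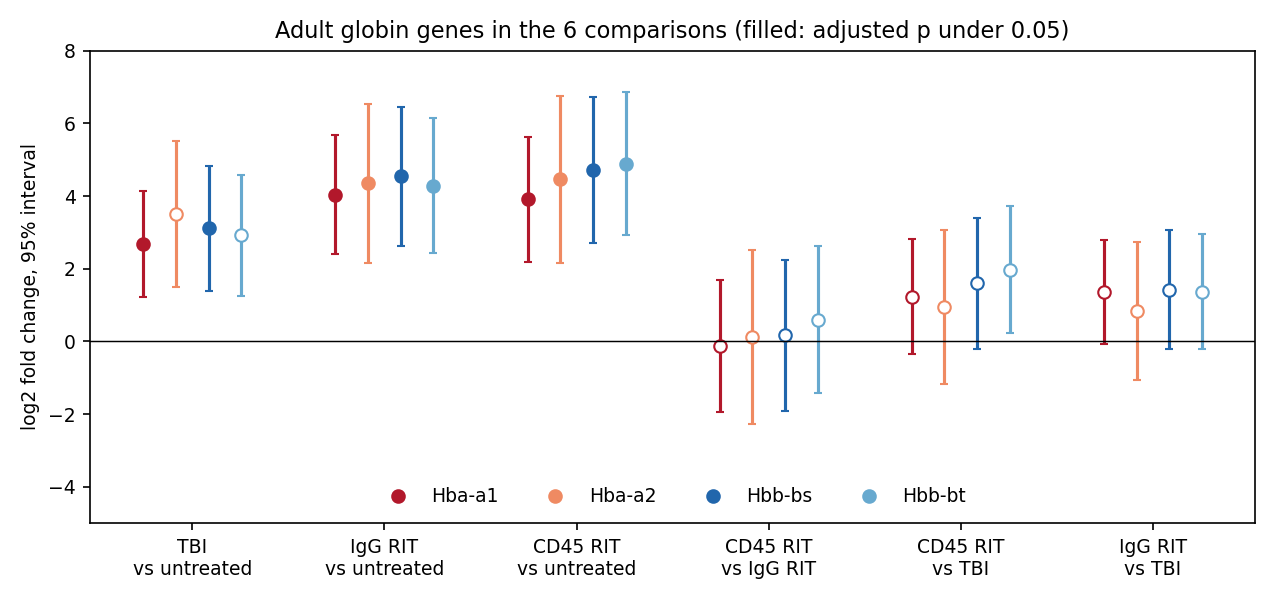
Points give the log2 fold change of each adult globin gene in the 6 comparisons, and whiskers give 95% intervals from the edgeR fit. Filled points have an adjusted p under 0.05. The comparisons with untreated lie above 0, whereas 11 of the 12 intervals of the comparisons among treated groups include 0.

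Among the treated groups, none of the members passed the edgeR test. CD45 RIT against IgG RIT gave log2 fold changes of -0.13 for Hba-a1 (95% interval -1.95 to 1.7), 0.11 for Hba-a2 (-2.28 to 2.51), 0.17 for Hbb-bs (-1.91 to 2.25) and 0.6 for Hbb-bt (-1.42 to 2.62), with adjusted p from 0.634 to 0.962. In this comparison 37.7% of genes tested were called and 20.2% were called higher, but 0 of 7 globin genes were called, and 0 had an unadjusted p under 0.05. The intervals still allow differences of several fold in either direction. The signs of Hba-a2 and Hbb-bs turned when no scaling factors were used (-0.08 and -0.05).

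For CD45 RIT against TBI the adult log2 fold changes ran from 0.95 for Hba-a2 to 1.97 for Hbb-bt (95% interval 0.22 to 3.73, adjusted p = 0.0703). Here 0 of 7 members were called, against 38.6% of genes tested and 19.6% called higher, and Hbb-bt alone had an unadjusted p under 0.05. For IgG RIT against TBI they ran from 0.84 for Hba-a2 to 1.43 for Hbb-bs (95% interval -0.2 to 3.06, adjusted p = 0.331). Here 0 of 7 were called, against 0.242% of genes tested and 0.0697% called higher, and 0 had an unadjusted p under 0.05. For 0 members did every library of the first group lie above every library of the second, against 21.7%, 18.2% and 8.37% of genes tested for the 3 comparisons in this order, and Hbb-bh1 alone lay wholly below, with both CD45 RIT libraries at 0 counts under every TBI library. DESeq2 called 0 members in each of the 3 comparisons among treated groups, but it gave no p for Hba-a1, Hbb-bs and Hbb-bt. Among the adult genes its result there covers Hba-a2 alone. Without TBI replicate 6, all 4 adult genes were called in both comparisons with TBI: Hbb-bs had a log2 fold change of 2.89 for CD45 RIT (adjusted p = 0.000857) and 2.72 for IgG RIT (adjusted p = 0.00527). The comparisons share groups and are therefore not independent of each other.

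Levels of different genes were compared per kilobase of the deposited gene length, on total counts. In untreated libraries Hba-a1 had 4870 ± 1580 (SD, n = 4) and Hbb-bs 4230 ± 1270 CPM per kilobase, and their ranges overlapped. Hbb-bt followed with 1410 ± 65.0 and Hba-a2 with 878 ± 550, with ranges that overlapped too. In IgG RIT libraries the order was Hbb-bs at 68600 ± 2040 (SD, n = 3), Hba-a1 at 55600 ± 6820, Hbb-bt at 19300 ± 5700 and Hba-a2 at 12300 ± 6170 CPM per kilobase. Every IgG RIT library had more Hbb-bs than Hba-a1, while Hbb-bt and Hba-a2 overlapped. The same gene of each pair led in both groups.

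Alpha and beta chains are needed in equal number, and free alpha chains, the partner of Ahsp, precipitate in red cells. The ratio of alpha to beta counts was 0.966, 0.885, 1.23 and 1.14 in the untreated libraries. It was 0.898, 0.87, 1.37, 0.805 and 0.879 in TBI replicates 1, 3, 4, 5 and 6, 0.813, 0.687 and 0.937 in IgG RIT, and 0.568 and 0.977 in CD45 RIT. The groups overlapped, and CD45 RIT replicate 1, the library with the largest globin share, had the lowest ratio. No test was made of this ratio.

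Within the pairs, Hba-a2 made up 7.0% to 16.5% of alpha counts in untreated libraries, 11.0% to 23.3% after TBI, 8.67% to 23.4% after IgG RIT and 17.7% to 18.0% after CD45 RIT. Hbb-bt made up 17.7% to 28.4% of beta counts in untreated libraries, 17.2% to 29.9% after TBI, 15.3% to 24.0% after IgG RIT and 21.8% to 26.3% after CD45 RIT. Both CD45 RIT libraries lay above the untreated range in the Hba-a2 share, and the other treated ranges overlapped the untreated range in both shares. Over the 14 libraries the log2 ratio of 1 adult gene to another had an SD of 0.34 for Hba-a1 and Hbb-bs, the lowest of the 6 pairs, to 0.64 for Hba-a2 and Hbb-bt, the highest, while the log2 CPM of each adult gene had an SD of 1.82 to 2.14. Each adult gene thus varied more between libraries than against any other.

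**Figure D4:**
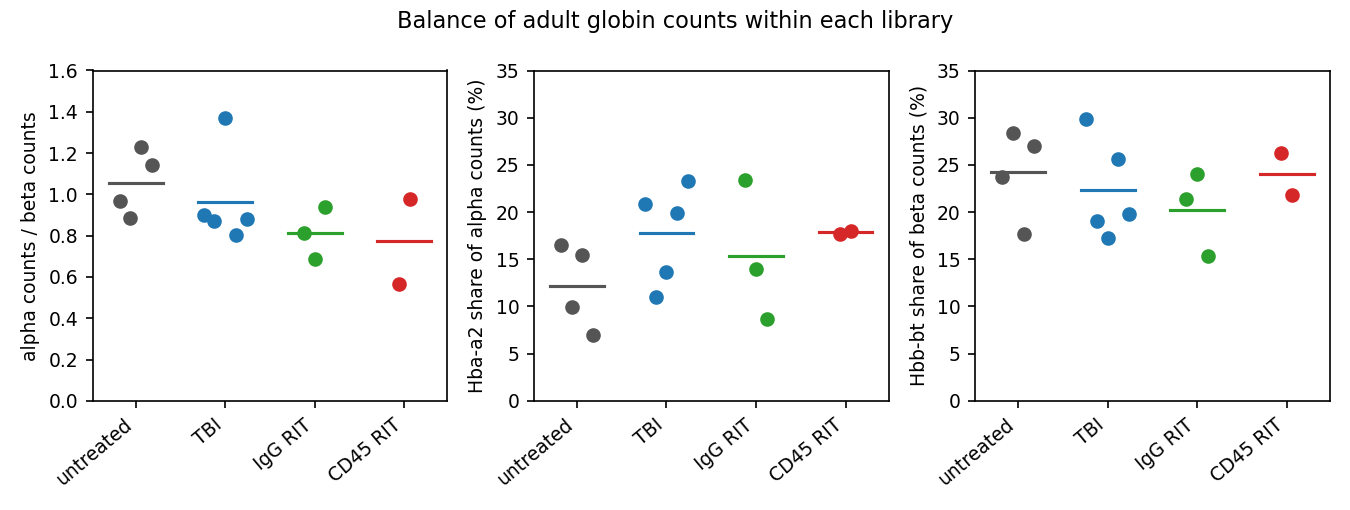
Each point is 1 library and each bar a group mean, on linear axes from 0. The panels give alpha counts over beta counts, the Hba-a2 share of alpha counts (%) and the Hbb-bt share of beta counts (%). The ratio runs from 0.568 to 1.37 over the 14 libraries, and the treated ranges overlap the untreated range except for the Hba-a2 share in CD45 RIT, at 17.7% and 18.0% against 7.0% to 16.5%.

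Embryonic globin transcripts were nearly absent. Together Hba-x, Hbb-y and Hbb-bh1 had 0 to 103 counts per library, out of 178062 to 4150723 globin counts. By group there were 0 to 25 such counts per library in untreated, 15 to 78 in TBI, 4 to 103 in IgG RIT, and 9 and 1 in CD45 RIT. The library with the most globin counts, CD45 RIT replicate 1, thus had fewer embryonic counts than any TBI library.

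Hba-x, the zeta-type alpha chain of primitive red cells, had 2, 24, 0 and 0 counts in the untreated libraries and 7, 37, 11, 4 and 21 counts in the TBI libraries. IgG RIT libraries had 4, 5 and 1 counts and CD45 RIT libraries 7 and 1. The untreated level rested on replicate 2, and no comparison passed the test, with adjusted p of 0.515 for TBI, 0.969 for IgG RIT and 0.915 for CD45 RIT against untreated in the edgeR fit.

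Hbb-y, the epsilon-type beta chain, had 0 counts in all 4 untreated libraries and 3, 5, 3, 22 and 28 counts in TBI replicates 1, 3, 4, 5 and 6. IgG RIT replicates 1 to 3 had 0, 19 and 16 counts, and CD45 RIT replicates 2 and 0. Against a floor of 3 counts per untreated library, the TBI mean was at least 5.52-fold higher and the IgG RIT mean at least 4.58-fold higher. TBI replicates 1 and 4 were themselves at that floor. Only IgG RIT against untreated passed (adjusted p = 0.0392, against 0.0734 for TBI, edgeR), although IgG RIT replicate 1 had no count. Hbb-y passed the filter on low counts only through the TBI and IgG RIT libraries, where it was high, so this call is no support for a rise. That call was kept in 11 of 22 alternatives, with adjusted p from 0.00313 to 1.0.

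Hbb-bh1, the other embryonic beta chain, had 25 counts in untreated replicate 4 and 0 in the other 3. TBI libraries had 5, 18, 5, 17 and 29 counts, IgG RIT replicate 2 had 79 and the other IgG RIT libraries 0, and both CD45 RIT libraries had 0. The group values thus rested on single libraries except in TBI. No comparison passed the test (adjusted p from 0.142 to 0.843, edgeR).

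Other globin-family genes had fewer counts than the adult globin genes. Of 10 listed, 7 were tested, and 0 were called after TBI, 2 higher after IgG RIT and 5 higher after CD45 RIT, with medians of 1.97, 3.19 and 5.14 on the log2 scale, against all-gene medians of -0.16, -0.42 and -0.37. Over all genes tested, 0.921%, 5.75% and 14.5% were called higher in these comparisons. Hbq1b, the theta-type gene of the alpha cluster, had 17.9 ± 4.83 CPM (SD, n = 4) in untreated and 304 ± 24.7 CPM (SD, n = 3) in IgG RIT libraries, a rise of 4.09 on the log2 scale (SE 0.83, adjusted p = 0.00759, edgeR). In CD45 RIT it had 165 and 12.7 CPM and was not called (adjusted p = 0.0511, edgeR). Mb, the gene of muscle myoglobin, had 0 to 3 counts in untreated and 132 and 215 counts in CD45 RIT libraries, and Ngb, neuroglobin, 0 to 13 against 112 and 952 counts. Neither gene belongs to the haemoglobin clusters. Mb had at most 5 counts in TBI and 13 in IgG RIT libraries, so it passed the filter on low counts through CD45 RIT. Its call there adds no support to the count of 5. The calls after CD45 RIT changed without replicate 1, where a single CD45 RIT library is left, and with the library-number term 0 of these genes were called higher.

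Haem synthesis supplies the prosthetic group of every globin chain. Of 13 such genes, 2 were called higher and 1 lower after TBI, 8 higher and 1 lower after IgG RIT, and 2 higher and 2 lower after CD45 RIT. The background over all genes was 0.921% for higher calls and 3.38% for lower calls with TBI, 5.75% and 10.7% with IgG RIT, and 14.5% and 18.6% with CD45 RIT, and the list's shares for CD45 RIT, 15.4% each way, were near the latter. The medians were 1.25, 2.29 and 0.2, and the last turned to -0.57 with no scaling factors. Alas2, the erythroid form of the first and rate-limiting enzyme, rose from 123 to 311 CPM in the 4 untreated libraries to 5550 ± 1010 CPM (SD, n = 3) in IgG RIT, and the log2 fold change was 3.25 for TBI (adjusted p = 0.035), 4.64 for IgG RIT (adjusted p = 0.00537) and 4.92 for CD45 RIT (adjusted p = 0.00165) in the edgeR fit. Alas1, the housekeeping form of the same enzyme, fell by 2.49 on the log2 scale in TBI libraries (adjusted p = 0.00486) and by 2.99 in IgG RIT libraries (adjusted p = 0.00337, edgeR). Fech, which inserts iron into the ring, rose by 2.46, 3.4 and 3.34 for TBI, IgG RIT and CD45 RIT (adjusted p of 0.0401, 0.00662 and 0.00375, edgeR). Without CD45 RIT replicate 1 the median after CD45 RIT was -2.01. The calls after TBI depended on which CD45 RIT libraries were in the fit. With the library-number term, 0 genes of the list were called after IgG RIT, and 0 higher and 1 lower after CD45 RIT.

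Genes that guard the balance of globin chains or act in red cell maturation were called higher in 1 of 10 after TBI, 8 of 10 after IgG RIT and 5 of 10 after CD45 RIT, and none lower in those edgeR comparisons. Of all genes tested, 0.921%, 5.75% and 14.5% were called higher. The medians of the list were 1.44, 2.43 and 2.35. Bpgm, which makes the red cell metabolite that lowers oxygen affinity, had 87.4 ± 30.1 CPM (SD, n = 4) in untreated and 5210 and 1630 CPM in CD45 RIT, a rise of 5.29 on the log2 scale (SE 1.0, adjusted p = 0.00197, edgeR). Ube2o, the ubiquitin enzyme that clears proteins from reticulocytes, rose by 3.62 in IgG RIT (adjusted p = 0.00792) and by 4.41 in CD45 RIT (adjusted p = 0.00152, edgeR). The calls after CD45 RIT depended on replicate 1, without which a single CD45 RIT library is left. With the library-number term 0 genes of the list were called after either RIT.

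The factors that control the globin loci did not move in 1 direction. Of 28, 2 were called higher and 1 lower after TBI, 6 and 4 after IgG RIT, and 2 and 6 after CD45 RIT, with medians of 0.13, 0.13 and -0.21. The lower calls, 3.57%, 14.3% and 21.4% of the list, were near the 3.38%, 10.7% and 18.6% of all genes tested. The higher calls were 7.14%, 21.4% and 7.14% of the list, against 0.921%, 5.75% and 14.5%. With median-of-ratios (RLE) factors the CD45 RIT counts were 6 higher and 5 lower with a median of 0.03, and with no scaling factors the IgG RIT counts were 5 and 6 with a median of -0.39. The CD45 RIT counts also depended on replicate 1, without which a single CD45 RIT library is left. Tal1, an erythroid factor that binds the locus control region in complex with GATA1, rose by 1.52 on the log2 scale in TBI libraries (adjusted p = 0.0146) and by 2.42 in IgG RIT libraries (adjusted p = 0.00184, edgeR). Gata2, the factor of earlier progenitors, fell from 183 ± 50.5 CPM (SD, n = 4) in untreated to 43.4 ± 20.5 (SD, n = 5) in TBI and 8.16 ± 2.78 (SD, n = 3) in IgG RIT, and had 0 counts in both CD45 RIT libraries. Bcl11a, a repressor of embryonic globin genes, had 76.2 ± 9.98 CPM (SD, n = 4) in untreated and 0.122 and 0.577 CPM in CD45 RIT, a fall that passed the test (adjusted p = 1.24e-05, edgeR).

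Genes that take up or break down haemoglobin and haem gave 0 calls higher and 1 lower of 9 after TBI, 2 and 1 after IgG RIT, and 3 and 2 after CD45 RIT, with medians of -0.12, -1.32 and 1.13, the last turning to -0.88 without CD45 RIT replicate 1. Over all genes tested, higher calls were 0.921%, 5.75% and 14.5%, and lower calls 3.38%, 10.7% and 18.6%. The list's lower calls after IgG RIT and CD45 RIT were near those shares. Hmox1, the haem oxygenase, had 3.32 ± 2.34 CPM (SD, n = 4) in untreated. It had 23.3 and 150 CPM in CD45 RIT replicates 1 and 2, a rise of 4.71 on the log2 scale (adjusted p = 0.00288, edgeR). The haemoglobin receptor Cd163 fell by 4.27 after IgG RIT (adjusted p = 0.0144, edgeR). Markers of other cells moved with the CD45 RIT values: the 10 stromal markers summed to 41000 and 58100 CPM there and to 351 to 7880 CPM elsewhere, and all 10 were called higher than in untreated. The 10 macrophage markers summed to 2510 and 2330 CPM against 25.7 to 209 CPM, but that sum was nearly all Vcam1, which is on the stromal list too and had 57726 and 59214 counts. Of the macrophage markers, 5 were called higher and 3 lower, among them Csf1r and Adgre1, and Adgre1 and Spic had 0 counts in both CD45 RIT libraries. Their part in these results was not tested.

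By pattern over the 14 libraries, 4 of the 5 protein-coding genes most like the mean of the 4 adult globins, among 14228 compared, were Alas2 (Pearson r = 0.995), Apex2 (0.995), Fam214b (0.989) and Ube2l6 (0.988). These correlations of log2 CPM are descriptions, and the libraries share their treatment groups and library numbers. Apex2, at chrX:150519519-150589868 on the minus strand, spans Alas2, at chrX:150547375-150570638 on the plus strand. Whether strand was used in counting is not given in the sources used here, so reads of these 2 genes cannot be told apart.

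Globin counts varied less against Alas2 than against the summed erythroid markers. There were 22.4 to 43.1 globin counts per Alas2 count in all 14 libraries. Per count of Slc4a1, the red cell anion exchanger, there were 11.6 to 26.1 globin counts in the 12 other libraries but 55.6 in CD45 RIT replicate 1, and in replicate 2 4875 Slc4a1 counts stood beside 1216570 globin counts. Per count of all 20 erythroid markers, globin counts were 0.866 to 1.37 in untreated libraries, 1.2 to 1.56 in TBI replicates 1, 3, 4 and 5, 3.44 in TBI replicate 6, 2.69 to 3.01 in IgG RIT, and 7.16 and 14.6 in CD45 RIT. Alas2 is itself among the 20 markers.

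The erythroid markers were called higher in 2 of 20 after TBI, 8 of 20 after IgG RIT and 4 of 20 after CD45 RIT, and lower in none in the edgeR fit, with medians of 1.63, 3.01 and 0.9. All genes tested were called higher in 0.921%, 5.75% and 14.5%, to which the 20.0% of this list after CD45 RIT came close. The CD45 RIT group was not uniform: the 20 markers summed to 24900 CPM in replicate 1 and 3100 CPM in replicate 2. Untreated libraries had 7450 to 9130 CPM. The log2 fold changes of the 4 adult globin genes against untreated were 2.83 to 3.41 without replicate 1 and 4.47 to 5.65 without replicate 2. With the library-number term 2 of 20 markers were called higher for TBI and 0 for IgG RIT and CD45 RIT. The share of all genes called in that fit is not reported here.

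Relative to globin, most erythroid transcripts were scarce in the CD45 RIT libraries. Per 1000 globin counts, 19 of 20 markers were below all 12 other libraries in CD45 RIT replicate 1, and 19 of 20 in replicate 2, Alas2 being the exception in both (44.7 and 38.2, against 23.2 to 44.0 elsewhere). The same held for 11 of 13 haem synthesis genes in each replicate. It also held for 23 and 15 of 28 globin locus regulators in replicates 1 and 2. The share over all genes is not given here, so these counts are not shown to be particular to erythroid markers. Klf1, the factor of the CACCC box, had 42.6 to 84.0 per 1000 globin counts in untreated, 8.06 to 41.4 in TBI, 10.7 to 12.7 in IgG RIT, 1.83 in CD45 RIT replicate 1 and 0 in replicate 2. Gata1 and Tspo2 also had 0 counts in CD45 RIT replicate 2, and Tfrc, the transferrin receptor, had 1. Slc25a37, the mitochondrial iron importer, was less reduced, with 4.85 and 5.01 against 9.27 to 17.1 elsewhere. In contrast Bpgm, outside the marker list, was above all 12 other libraries in both, with 20.6 and 27.9 against 4.58 to 16.7. These ratios were compared with no test.

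**Figure D5:**
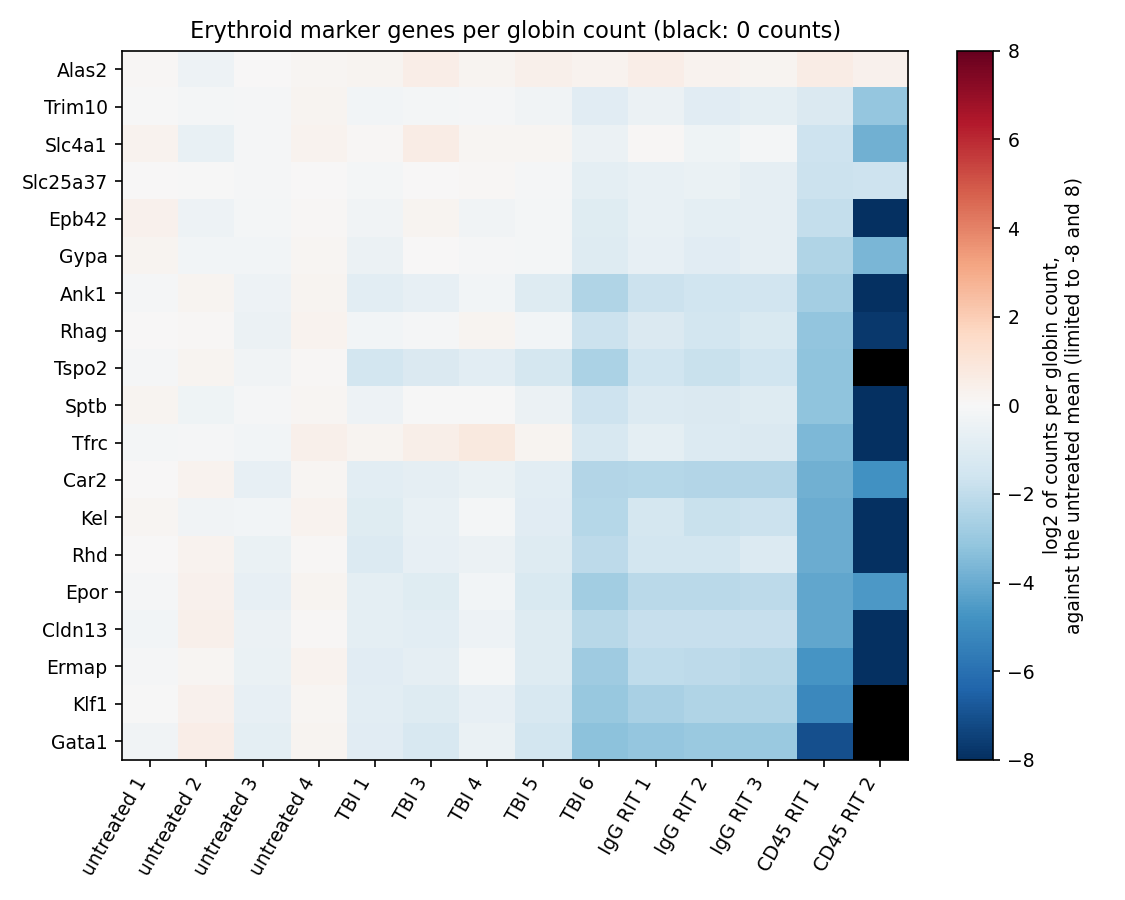
Colours give the log2 ratio of each erythroid marker's counts per globin count to the untreated mean, limited to -8 and 8, for 19 of the 20 genes (rows, ordered by CD45 RIT replicate 1) and 14 libraries (columns). Black cells have 0 counts. Alas2 stays near the untreated mean in all columns, while all other genes shown are lower in both CD45 RIT libraries than in the 12 other libraries.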

How the data were processed

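Libraries were made from sorted cells with the SMART-Seq v4 and Nextera XT kits, per the labels' protocols, which mention no molecular identifiers, so intervals and floors cover counting error only. The authors deposited whole-number counts per gene with gene lengths. STAR 2.7.7a, FastQC 0.11.9, edgeR 3.36.0 and the human build hg38 are named in the submitters' processing notes, without roles. The coordinates matched GENCODE M21 (GRCm38) for 54587 of 54587 shared identifiers, so that build is used.

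Counts were fitted in R 4.3.3 with edgeR 4.0.16: filterByExpr (minimum count 10, minimum total 15), TMM factors and the robust quasi-likelihood test with 1 coefficient per group over 14 libraries. The 6 contrasts were adjusted by Benjamini-Hochberg over 21509 genes and called at 0.05. Shares of all genes called are given for that fit alone, so counts called in the alternatives have no such share beside them. The SE is the log2 fold change over the root of F. The fit was tested on simulated data. A floor of 3 counts stands for 0, log2 CPM used a prior count of 2, and 0 sample columns were left unassigned. All members are named. Of each other list, at most the 2 largest called rises and 2 largest called falls per contrast were eligible for naming. Outside that rule, and with their values known, these were named: Hbq1b in CD45 RIT, Cdh5, Spic, neutrophil markers other than Mpo and Elane, and genes in the ratios to globin. Some list and most-like genes are counted but not reported here by name. The members and lists were chosen with earlier results of these data known. Alternatives were RLE and no factors, factors without globin genes, no filter, only 2 groups, a replicate block, each library left out, DESeq2 1.42.0, and, added after seeing the data, DESeq2 without its outlier cutoff and library number of 10 or more as a term.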

Additional observations from a re-analysis of the deposited data

Results flagged for a closer look

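In 10 of 25 groups of 4 or 5 libraries, 1 library stood apart by Dixon's criterion, which chance meets in about 1 in 20 groups. The measures are not independent, since the adult globin genes vary together. TBI replicate 6 stood apart from the other TBI libraries in Hba-a1 (66200 CPM), Hba-a2 (20100 CPM), Hbb-bs (78700 CPM), Hbb-bt (19500 CPM) and Hbb-bh1 (2.08 CPM), in the globin share of counts (15.7%) and in globin counts per erythroid marker count (3.44). It is also the TBI library with a library number of 10 or more, and whether that number bears on these values was not tested. In TBI replicate 4 the ratio of alpha to beta counts was 1.37, the highest in its group. Untreated replicate 2 stood apart in Hba-x (0.718 CPM, 24 counts) and untreated replicate 4 in Hbb-bh1 (0.866 CPM, 25 counts).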

How the results depend on the processing

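The count of members called for TBI against untreated was the least stable result. It was 2, and became 4 with no scaling factors, 0 with no filter on low counts and 4 with only the 2 groups compared. With DESeq2 without its outlier cutoff it became 5, with Hbb-y among them, which passed the filter only through libraries where it was high. When 1 library was left out the count moved both ways, down to 0. The replicate block changed it to 0, and changed CD45 RIT against TBI from 0 to 4 and IgG RIT against TBI from 0 to 1, with log2 fold changes of Hbb-y at 1.75 and Hbb-bh1 at -1.86 in the last and Hba-x at 0.46 for IgG RIT against untreated, signs turned in each. TBI replicates 5 and 6 have no partner, so that block fits each exactly and both drop out of its comparisons with TBI. Those comparisons are thus made without the high TBI replicate 6, and the change in calls cannot be credited to pairing. Same-numbered libraries did not deviate together (13 pairs, r from -0.09 to 0.14, median 0.02), so the numbers were not taken as pairs. For IgG RIT and CD45 RIT against untreated, the 4 adult genes were called in every alternative in which they had a p-value except the library-number term, which gave 0 and 0 called. DESeq2 gave no p for Hba-a1, Hbb-bs and Hbb-bt, and called 2 of 4 and 1 of 4 members. For CD45 RIT against TBI, 1 was called with only the 2 groups compared, and its name is not reported here. Over all alternatives of that comparison Hbb-bh1 was called in 1, with log2 fold changes below 0 throughout (-9.56 to -6.14). Leaving out 1 library gave 4 to 5 called for IgG RIT against untreated, 4 in each case for CD45 RIT against untreated, 0 in each case for CD45 RIT against IgG RIT, 0 to 4 for CD45 RIT against TBI and 0 to 4 for IgG RIT against TBI. The mean globin share of IgG RIT was 12.0% of counts and 14.3% on TMM-scaled library sizes.

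Signs turned only for members that were not called. Hba-x in IgG RIT against untreated (-0.12) became 0.14 with RLE factors and with DESeq2, with and without its outlier cutoff, 0.03 with no filter, 2.91 without untreated replicate 2, 0.31 without IgG RIT replicate 3, against -0.52 without untreated replicate 3 as the lowest, and 0.1 without CD45 RIT replicate 2. Hbb-bh1 there became -5.45 without IgG RIT replicate 2 and was up to 8.01 without untreated replicate 4. Hba-x in CD45 RIT against untreated (0.26) became -0.48 with no scaling factors, -0.05, -0.14 and -0.14 without untreated replicates 1, 3 and 4, -1.91 without CD45 RIT replicate 1 and -1.19 with the library-number term, and was up to 3.29 without untreated replicate 2. For CD45 RIT against IgG RIT, Hba-a2 and Hbb-bs became -0.08 and -0.05 with no scaling factors, -0.08 and -0.03 with no filter, and -0.93 and -1.45 without CD45 RIT replicate 1, where Hbb-bt became -1.33 and Hba-x -1.79. Hba-a2 became -0.03 and -0.16 without IgG RIT replicates 2 and 3, Hba-x -0.04 without IgG RIT replicate 3, and Hba-a1 0.25 without CD45 RIT replicate 2 and -1.2 without replicate 1. Leaving out 1 library gave up to 0.65 for Hba-a2, 0.69 for Hbb-bs and 1.16 for Hbb-bt. For CD45 RIT against TBI, Hba-a2 and Hbb-bs became -0.09 and -0.02 without CD45 RIT replicate 1 and reached 2.49 and 2.89 without TBI replicate 6, and the library-number term gave -0.42, -0.9 and -0.15 for Hba-a1, Hba-a2 and Hbb-bs. For IgG RIT against TBI that term gave -0.29, -1.02, -0.32, -0.27 and -0.66 for Hba-a1, Hba-a2, Hbb-bs, Hbb-bt and Hbb-bh1. There, Hbb-y became 0.01, 1.01 and 0.52 without TBI replicate 5, TBI replicate 6 and IgG RIT replicate 1, with -0.56 without IgG RIT replicate 2 as the lowest of the values that leave out 1 library, and Hbb-bh1 ran from -7.2 without IgG RIT replicate 2 to 1.69 without TBI replicate 6. The causes were not tested. With no scaling factors the median of all genes shifted by -0.12 to -0.71 and with RLE factors by 0.04 to 0.24. The CD45 RIT group has 2 libraries, and the near-identical adult copies limit values of single genes.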
